A study of Mus musculus with 10 samples.

Results

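The genes described here encode 9 enzymes of citrulline, proline and glutamine metabolism: Cps1, Otc, Ass1, Asl, Arg2, Oat, Prodh, Aldh4a1 and Aldh18a1. They were found as the array probes that carry 1 of these gene names, which gave 13 probes for all 9 genes, among 28034 named genes on the array. RNA was read on 10 Agilent 2-colour arrays. Crypts, the pits of the small intestinal epithelium, came from AhCre_Lgr4fl/fl_Lgr5fl/fl mice on day 1 after deletion, in 2 biological replicates, each hybridised against wild type crypts on arrays with swapped dyes. In AhCre mice a xenobiotic-responsive promoter drives the recombinase, and the labels do not say which agent, if any, the wild type mice received. Organoids, small epithelial structures cultured from crypts, came from VillinCre_Lgr4fl/fl-Lgr5fl/fl mice, deleted for 1 day (2 cultures), and from VillinCre_wt mice with tamoxifen induction for 1 day (2 cultures). VillinCre is active in the intestinal epithelium. A further organoid culture was kept without R-spondin for 1 day after splitting, with EGF and Noggin only, and was set against 1 culture with EGF, Noggin and R-spondin. Organoid RNA carried Cy5 on every array, with the Stratagene mouse reference RNA in the Cy3 channel. Lgr4 and Lgr5 are receptors for R-spondin, a secreted protein that strengthens Wnt signalling, and the comparisons ask what the epithelium does when the receptors or the ligand are taken away.

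The intestinal epithelium makes citrulline from glutamine and proline and releases it, and the kidney turns it into arginine. Aldh18a1 reduces glutamate towards pyrroline-5-carboxylate, and Prodh oxidises proline to the same compound. Oat turns pyrroline-5-carboxylate into ornithine, or the reverse, while Aldh4a1 oxidises it to glutamate. Cps1 makes carbamoyl phosphate from ammonia, and Otc joins it to ornithine to give citrulline, both in mitochondria. Ass1 and Asl convert citrulline to arginine, and Arg2, the mitochondrial arginase, splits arginine into ornithine and urea.

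Promoter stretches are shown for 3 of the enzymes because Aldh4a1 had the largest crypt change of the members tested, and because Ass1 and Aldh18a1 hold the same short motif. The sequences are RefSeq's (build GRCm38.p6), 5′ to 3′ on the gene's strand and ending before the gene's annotated span. Capitals mark GCGTG, the core that the aryl hydrocarbon receptor binds, or its reverse complement CACGC.
Aldh4a1, chr4:139622644-139622870, plus strand: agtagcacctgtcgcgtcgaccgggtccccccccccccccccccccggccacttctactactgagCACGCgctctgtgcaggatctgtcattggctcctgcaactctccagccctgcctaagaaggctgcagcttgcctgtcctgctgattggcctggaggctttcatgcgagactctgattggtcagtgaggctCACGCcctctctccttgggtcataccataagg
Ass1, chr2:31470020-31470269, plus strand: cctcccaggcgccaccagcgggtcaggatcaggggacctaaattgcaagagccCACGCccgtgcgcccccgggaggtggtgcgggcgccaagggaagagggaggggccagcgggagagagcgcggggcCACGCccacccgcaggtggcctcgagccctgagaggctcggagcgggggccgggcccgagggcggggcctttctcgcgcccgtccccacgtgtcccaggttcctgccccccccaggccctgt
Aldh18a1, chr19:40588464-40588713, minus strand: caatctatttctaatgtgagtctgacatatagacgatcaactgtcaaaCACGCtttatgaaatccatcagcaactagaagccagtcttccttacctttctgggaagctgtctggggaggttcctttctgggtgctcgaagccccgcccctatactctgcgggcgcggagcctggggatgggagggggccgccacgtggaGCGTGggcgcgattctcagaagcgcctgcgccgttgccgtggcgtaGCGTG
The table held a promoter for 6 of the 9 genes. In the 250 bases before the start site, searched on both strands, GCGTG was found in 4 of the 6, with 2 matches in Aldh4a1, 2 in Ass1, 3 in Aldh18a1 and 3 in Prodh, none of which overlapped. Of all 32851 promoter stretches of that length, 28.2% held it. The motif CTTTGA, bound by TCF factors of the Wnt pathway, was in 0 of the 6 and in 13.8% of all. The motif TTTAT, bound by the intestinal Cdx factors, was in 2 of the 6, with 2 matches in Otc and 1 in Aldh18a1, and in 37.3% of all. A match is a description of the letters only.

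Aldh4a1 and Cps1 had the largest changes of the members on deletion. Aldh4a1 had about the same signal, near that of the negative controls, in deleted and wild type organoids. It had a far higher one in deleted than in wild type crypts. This was the 1 member whose change passed a test of the difference between the systems, a call lost in 5 of 6 alternatives. Cps1 was lower in deleted crypts and in deleted organoids, and lower without R-spondin than with it, and it did not pass the adjusted test in either deletion as fitted here. It did pass in organoids with the slide as a block (limma adjusted p 0.00533). In crypts it passed under 2 alternatives, 1 of which takes part of its spread from the organoid ratios to the Cy3 reference. Arg2 was higher without R-spondin, in 1 culture against 1, by 0.069 to 2.90 depending on the measure. Prodh was lower without R-spondin, while Asl, Aldh4a1 and Aldh18a1 had changes of -0.12, -0.13 and 0.068 there.

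The receptor genes were lower in the samples labelled deleted. The brightest of 4 Lgr4 probes gave log2 ratios of -1.51, -1.52, -1.78 and -1.45 on the crypt arrays, and Cy5 levels of 161 and 286 in deleted organoids against 2053 and 3165 in wild type organoids. Lgr5 gave -1.51, -2.27, -1.54 and -1.42 on the crypt arrays and was not well above background in either deleted organoid culture. With marked spots kept, the second array of replicate 1 gave -0.31 for Lgr4 and -0.24 for Lgr5. A dim Lgr4 probe did not follow, at 0.24, 0.18, 1.20 and 0.97 on the crypt arrays and 0.14 in organoids, and whether these probes lie in the deleted part is not given in the labels. The dye-swapped arrays of crypt replicate 1 correlated at 0.351 over 14234 probes, against 0.92 for those of replicate 2, and arrays of different replicates at 0.338 to 0.395. The Cps1 and Aldh4a1 crypt changes are therefore also given without each replicate. On the organoid deletion arrays, the negative controls in Cy3 had medians of 5883 to 6564, above those of the gene probes at 1830 to 1933, so organoid changes are given from Cy5 alone. All 7 intestinal epithelium markers, among them Vil1, Cdx1, Cdx2 and Epcam, were above background in every sample. Levels below are normalised fluorescence intensities without unit, comparable for 1 probe within a comparison only. Changes are log2 values. The p-values test a mean change against the spread between these replicates or cultures, which limma moderates over all genes. The main organoid fit leaves out the slide pairing.

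**Figure D1:**
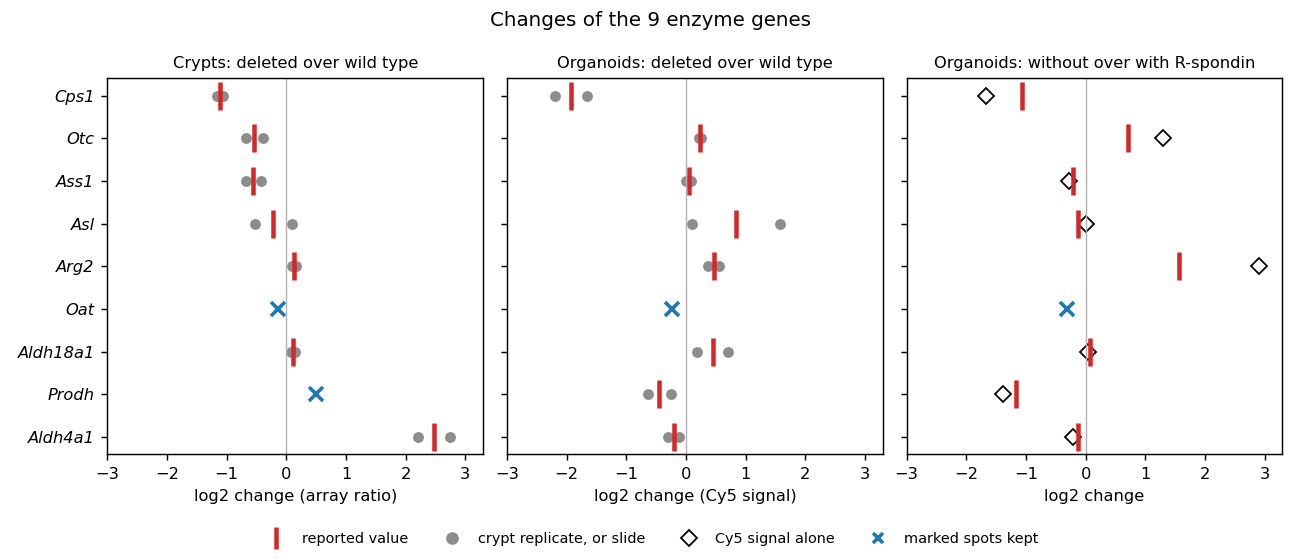
Log2 change (horizontal axes) of each of the 9 genes (rows) in crypts, in organoids and on R-spondin withdrawal. Red bars are the reported values, grey points the 2 crypt replicates or the 2 organoid slides, open diamonds the withdrawal change from the Cy5 signal alone, and blue crosses values that exist only when spots marked as outliers are kept. Aldh4a1 lies at 2.48 in crypts and at -0.21 in organoids, and Cps1 is below 0 in all 3 panels.

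The probes behind the main values lie, by the array design's own positions, at chr1:67277466-67277525 for Cps1, chr12:80252972-80253031 for Arg2, chr16:18071891-18071950 for Prodh and chr4:139205420-139205479 for Aldh4a1. These positions are of build mm9 per the file headers, for which no exon annotation was used here.

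Of the 13 probes, 11 were above background in every crypt sample, 11 in every deleted and wild type organoid, and 12 in both cultures of the withdrawal. In crypts, 7 of the 9 members had a tested value. Oat was marked as an outlier spot by the scanner software on all 4 arrays, and Prodh on both arrays of replicate 1, so they had none. Of the 7, 0 passed limma's adjusted p under 0.05 in either direction, where 0.0492% of 12204 genes were called higher and 0% lower. At an unadjusted p under 0.05, limma called 1 member higher (Aldh4a1) and 2 lower (Cps1 and Ass1), beside 6.43% and 7.28% of all genes. A log2 change of at least 1 with both replicates the same way was reached by 1 member upwards and 1 downwards, beside 2.05% and 1.85% of all genes. The median change of the 7 was -0.22, and that of all genes tested was -0.02.

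Cps1, the entry enzyme that fixes ammonia, gave log2 ratios of -1.16 on the usable array of crypt replicate 1 and -1.07 on that of replicate 2. Its crypt levels were 21135 and 22745 in deleted crypts, against 47375 and 47744 in wild type crypts. Both deleted values lay below both wild type values. Crypts and organoids were read whole, so fewer cells of a type and less RNA per cell cannot be told apart. The limma estimate was -1.12 (SE 0.22, n = 2 replicates, adjusted p 0.170), which did not pass, and it ranked 140th from the bottom of 12204 genes. Its spots on the other 2 arrays were marked as outliers, and they disagreed when kept. The marked spot of replicate 1 then gave 0.30, against -0.97, -1.04 and -0.98 on the other 3 arrays. With marked spots kept, the estimate was -0.67 (limma adjusted p 0.368). Without replicate 1 it was -1.07 and without replicate 2 -1.16, each from a single array. It passed with median centring in place of loess, at -1.31 (limma adjusted p 0.0385), and in a joint fit with the organoid ratios, at -1.12 (0.0424). The joint fit takes part of its spread from the organoid ratios to the Cy3 reference, where negative controls were brighter than gene probes. Its p-value is limited by that.

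In organoids Cps1 was the member with the largest change. Its Cy5 levels were 6826 and 5523 in deleted cultures, against 21624 and 25374 in wild type cultures. The deleted cultures were both lower than either wild type culture, with a log2 change of -1.93 (SE 0.23, n = 2 each, limma adjusted p 0.108). That change was the 29th lowest of 13311 genes. Each slide held 1 deleted and 1 wild type culture, and the difference was -1.66 on one and -2.20 on the other. With the slide as a block the same change passed, at a limma adjusted p of 0.00533, where the block called 141 genes higher and 193 lower. The ratio to the Cy3 reference gave 0.066 instead. The raw Cy3 signal of the Cps1 spot was 1250.5 and 1205 on the deleted arrays against 1883 and 1994 on the wild type arrays, not well above background on any of them. The series matrix deposited by the authors, a ratio of the scanner software's processed signals, gave -1.40.

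Without R-spondin the Cps1 level was 18623, against 59568 with R-spondin. The ratio change was -1.07 and the Cy5 change -1.68, with 1 culture each and no test. The Cy3 signal of the spot was 128 without and 150.03 with R-spondin, not well above background on either array. With the scanner software's processed signals the ratio change was -0.36, inside the 2-fold limit. Cps1 was lower without R-spondin by each of these measures, but by different amounts.

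Otc, which makes citrulline, had 3 probes. In crypts its brightest probe gave -0.72 and -0.64 on the arrays of replicate 1, and -0.21 and -0.58 on those of replicate 2. All 4 arrays gave a lower signal in deleted crypts, with an estimate of -0.54 (SE 0.22, n = 2, limma adjusted p 0.368). A second bright probe gave -0.43 (SE 0.23), and the third was not above background on every array of either group. In organoids the second probe had levels of 9745 and 5018 in deleted cultures, against 8405 and 4190 in wild type cultures. The groups overlapped, as both cultures of 1 slide were brighter than both of the other, and the change was 0.24 (SE 0.45, limma adjusted p 0.966). Within each slide the deleted culture was the higher one, by 0.21 and 0.26. The first probe had 6649 and 3978 in deleted cultures, against 5014 and 2695 in wild type cultures, again with overlap and a change of 0.48. Its deleted culture was also the higher one on each slide.

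Without R-spondin, Otc went the opposite way to Cps1, its partner in citrulline synthesis. The brightest probe had a level of 9760 without R-spondin, against 3954 with it. The second had 8849 without and 3817 with R-spondin, so the 2 bright probes moved alike. Their ratio changes were 0.71 and 0.90, both under the 2-fold limit, and their Cy5 changes 1.30 and 1.21, both above it. The processed signals gave a ratio change of -0.16 for the first probe, whose processed Cy3 signal was 171 without and 50.5 with R-spondin.

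**Figure D2:**
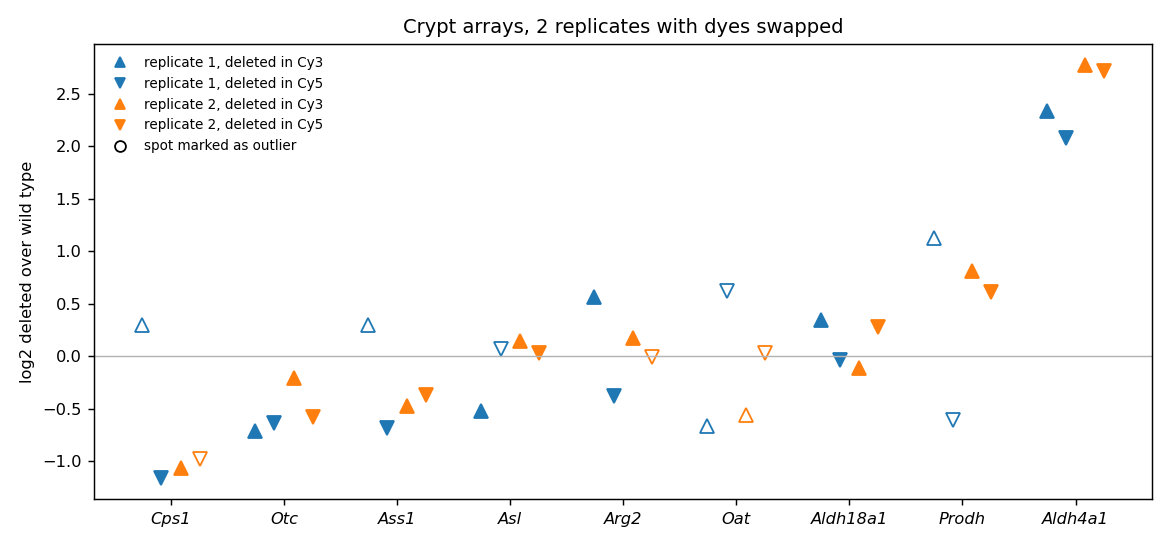
Log2 ratio of deleted over wild type crypts (vertical axis) for each gene on each of the 4 crypt arrays. Colours are the 2 replicates, triangle directions the dye of the deleted sample, and open symbols are spots marked as outliers. For Aldh4a1 the lowest of the 4 arrays is at 2.08 and the highest at 2.78. For Prodh the marked arrays of replicate 1 lie on opposite sides of 0, at 1.13 and -0.61.

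Ass1 and Asl together turn citrulline into arginine. Ass1, which condenses citrulline with aspartate, gave -0.68 on the usable array of crypt replicate 1, and -0.48 and -0.38 on the arrays of replicate 2. All 3 were below 0, at an estimate of -0.55 (SE 0.22, n = 2, limma adjusted p 0.362). Its other probe gave 0.12, -0.25, -0.35 and -0.51, so 1 array lay above 0, with an estimate of -0.25. In organoids this other probe had levels of 340.2 and 268 in deleted cultures, against 319.8 and 267 in wild type cultures. The groups overlapped (change 0.05, SE 0.24, limma adjusted p 0.998). The probe of the crypt estimate gave -0.15 in organoids. Without R-spondin the 2 Ass1 probes gave -0.22 and -0.82, neither past 2-fold.

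Asl, which releases arginine, gave -0.52 on 1 array of crypt replicate 1 and 0.15 and 0.03 on the arrays of replicate 2. The replicates lay on opposite sides of 0 (-0.22, SE 0.25, limma adjusted p 0.723). In organoids its levels were 2273 and 1641 in deleted cultures, against 2121 and 549 in wild type cultures. The second wild type culture alone was low, and the change of 0.84 (SE 0.61, limma adjusted p 0.850) became -0.13 without it. Without R-spondin Asl had 3935, against 3929 with R-spondin.

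Arg2, the arginase that returns arginine to ornithine, was the member with the largest change on withdrawal. Its Cy5 level was 31132 without R-spondin, against 4158 with R-spondin. The ratio change was 1.57 and the Cy5 change was 2.90. With processed signals the ratio change was 0.069. The Cy3 spot, which carries reference RNA, read 303 without and 144 with R-spondin, and it was well above background on the first array only. The Cy5 signal alone was higher without R-spondin in the raw values too, at 35718 against 4005. Of the 8 members with a value, 1 was past 2-fold upwards (Arg2) and 2 downwards (Cps1 and Prodh), beside 4.51% and 6.46% of all genes by ratio.

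In deleted organoids Arg2 had levels of 8151 and 7205, against 5550 and 5555 in wild type organoids. Both deleted cultures were above both wild type cultures, but the change of 0.46 (SE 0.21, n = 2 each) did not pass, at a limma adjusted p of 0.673. In crypts the arrays gave 0.56 and -0.38 for replicate 1 and 0.17 on the usable array of replicate 2, with a change of 0.13 (SE 0.22, limma adjusted p 0.818). The dye-swapped arrays of replicate 1 thus disagreed in sign.

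**Figure D3:**
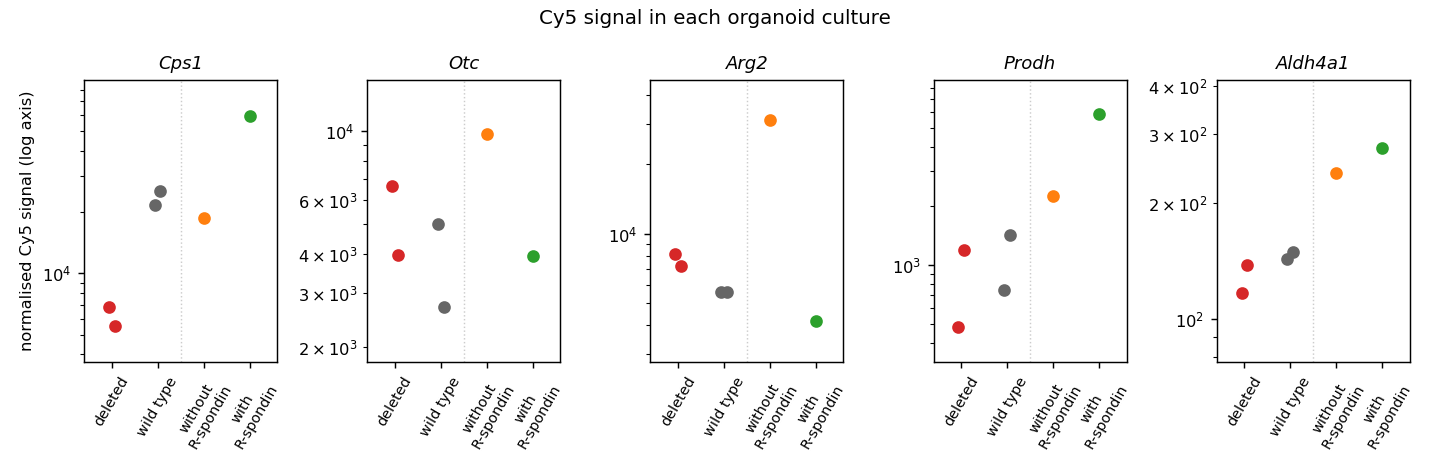
Normalised Cy5 signal (vertical axes, logarithmic, each panel on its own scale) of 5 genes in each organoid culture, 1 point per culture. Deleted and wild type cultures, left of the dotted line, were normalised apart from those without and with R-spondin, so levels compare only on 1 side of it. Cps1 is lower in both deleted cultures and without R-spondin, and Arg2 is higher without R-spondin, at 31132 against 4158. Otc is drawn from its brightest crypt probe.

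Oat, the aminotransferase between pyrroline-5-carboxylate and ornithine, was among the brightest spots and was marked as an outlier on 7 of the 10 arrays. Kept, its crypt values were -0.67 and 0.62 for replicate 1 and -0.56 and 0.03 for replicate 2. They were negative where the deleted sample carried Cy3 and positive where it carried Cy5, and their mean was -0.15 (SE 0.24, n = 2, limma adjusted p 0.878). In organoids the kept levels were 120684 and 78020 in deleted cultures, against 130554 and 100397 in wild type cultures. The groups overlapped, with a change of -0.24 (SE 0.28, limma adjusted p 0.930). The series matrix deposited by the authors gave 0.25, in the opposite direction. On withdrawal the kept change was -0.31.

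Aldh18a1, which starts proline and ornithine synthesis from glutamate, gave 0.34, -0.04, -0.11 and 0.28 on the crypt arrays, scattered around 0. In organoids its levels were 1894 and 1889 in deleted cultures, against 1158 and 1656 in wild type cultures. The groups did not overlap, but the change of 0.45 (SE 0.25, limma adjusted p 0.758) did not pass. Its level was 5491 without R-spondin, against 5328 with R-spondin.

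Prodh, the first enzyme of proline breakdown, gave 0.81 and 0.61 on the arrays of crypt replicate 2, both higher in deleted crypts. The marked arrays of replicate 1 gave 1.13 and -0.61, and with them kept the change was 0.49 (SE 0.25, limma adjusted p 0.493). In organoids its levels were 480 and 1191 in deleted cultures, against 743 and 1424 in wild type cultures. The deleted culture was the lower one on each slide (-0.63 and -0.26), but both cultures of 1 slide lay below both of the other, and the change was -0.44 (SE 0.51, limma adjusted p 0.916). Without R-spondin its level was 2244, against 5870 with R-spondin. This was -1.17 by ratio, -1.39 by Cy5 and -1.08 with processed signals, so Prodh was past 2-fold by each of the 3. Its Cy3 reference signal was well above background on both arrays, at 2069 without and 2389 with R-spondin.

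Aldh4a1, which completes proline breakdown to glutamate, gave log2 ratios of 2.34 and 2.08 on the arrays of crypt replicate 1 and 2.78 and 2.71 on those of replicate 2. Its levels were 2716, 1999.8, 2981 and 3260 in deleted crypts, against 537, 475, 435 and 497 in wild type crypts. Every deleted level was above every wild type level. The change was 2.48 (SE 0.24, n = 2), the 12th highest of 12204 genes, and missed the threshold at a limma adjusted p of 0.0627. It passed under 7 of 10 alternatives, and all 10 gave 2.01 to 2.80. Among the 10 are the joint fit and the fits without 1 replicate, whose spread comes partly or wholly from the organoid ratios. Without replicate 1 it was 2.75 and without replicate 2 it was 2.21, values of a single replicate. With marked spots kept, the second array of replicate 1 gave 0.28, against 2.32, 2.72 and 2.71 on the other 3, although the Aldh4a1 spot was not marked there, and the change was 2.01. A second probe was above background on 1 of the 4 arrays only and was not tested.

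Organoids gave no such difference for Aldh4a1. Its levels were 117 and 138 in deleted cultures, against 143 and 149 in wild type cultures. The raw Cy5 signals were 153.5 and 186 in deleted and 177 and 176 in wild type cultures. Negative controls in Cy5 had medians of 108 to 114 on these arrays. Aldh4a1 was thus read near the floor in organoids, which limits what a change there can show. Both deleted cultures were slightly lower, at -0.21 (SE 0.22, n = 2 each, limma adjusted p 0.907). Without R-spondin it had 238, against 277 with R-spondin, a ratio change of -0.13. The crypt change minus the organoid change was 2.68 (SE 0.29, 2 crypt replicates and 2 slides). It passed at a limma adjusted p of 0.0468, as 1 of 5 genes higher and 7 lower of 13522 (0.037% and 0.0518%). At an unadjusted limma p under 0.05 the difference was above 0 for 2 members (Aldh4a1 and Cps1) and below 0 for 1 (Otc), beside 4.95% and 5.02% of all genes. The call was lost without crypt replicate 2, at 2.41 (limma adjusted p 0.0708), and without either organoid slide, at 2.59 (0.410) and 2.77 (0.443). In these fits the lone replicate or slide is assumed to vary like the other system. It was also lost with organoid ratios in place of Cy5, at 3.02 (limma adjusted p 0.341), and with marked spots kept, at 2.16 (0.401), though the direction held in each.

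Other lists moved with the crypt comparison, and their part in it was not tested. Among all genes tested, 5798 of 12204 were above 0 in crypts, 6985 of 13311 in organoids and 9884 of 17164 on withdrawal. Of the 7 aryl hydrocarbon receptor targets, all 5 tested were above 0 in deleted crypts, at a median of 1.56, with Cyp1a1 at 3.66. Their summed level was 38385 to 44281 in deleted crypts, against 8869 to 11387 in wild type crypts, with Aldh3a1 not above background on any array. In organoids the summed level of the targets was 9119 and 7696 in deleted cultures, against 8199 and 4356 in wild type cultures, with Cyp1a1 below background in all but 1. All 9 tested of 10 immune cell markers were above 0 in crypts (median 1.79), with summed levels of 25055 to 72355 in deleted and 11672 to 14852 in wild type crypts. Cd79a alone was below background in most.

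Markers of the epithelial cell types also differed. All 10 tested of 12 enterocyte markers were above 0 in deleted crypts (median 0.61) and in deleted organoids (median 0.48). At an unadjusted limma p under 0.05, 5 of the 10 were higher in crypts and 2 in organoids, beside 6.43% and 3.49% of all genes. Their summed level was 631848 to 1444310 in deleted and 399735 to 592198 in wild type crypts. In organoids it was 789555 and 748804 in deleted cultures, against 775492 and 646717 in wild type cultures, which overlapped. Without R-spondin it was 1651490, against 977231 with R-spondin. Stem cell markers had a summed level of 4473 and 6076 in deleted organoids, against 18605 and 29670 in wild type organoids, and 3910 without R-spondin against 48002 with R-spondin. The stem cell medians were -0.69 in crypts, -2.10 in organoids and -2.99 on withdrawal. The list holds Lgr5, itself a deleted gene, so its own fall on deletion was given by the design. Lgr5 had no tested value in organoids. In crypts 6 of the 7 were below 0, all but Rnf43 (0.02). Lower at an unadjusted limma p under 0.05 were 5 of the 7 in crypts and all 5 tested in organoids, beside 7.28% and 4.25% of all genes. Paneth cell markers were below 0 for all 4 tested in crypts (median -0.97), all 5 in organoids (-0.74) and all 4 on withdrawal (-0.55). The crypt replicate medians were -1.63 and -0.39. At an unadjusted limma p under 0.05, 2 of the 4 were lower in crypts and 0 of the 5 in organoids, beside 7.28% and 4.25% of all genes. The summed level of the Paneth cell markers was 124248 without R-spondin, against 334322 with R-spondin. It was 57562 and 128066 in deleted organoids, against 79884 and 308814 in wild type organoids. In crypts it was 170125 to 435766 in deleted, against 420656 to 658038 in wild type samples. Deleted and wild type values overlapped in both systems. Stromal and muscle markers were below 0 for all 4 tested in crypts (median -0.62), with Des not above background on any crypt array. How far the enzyme changes follow these shifts was not tested.

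**Figure D4:**
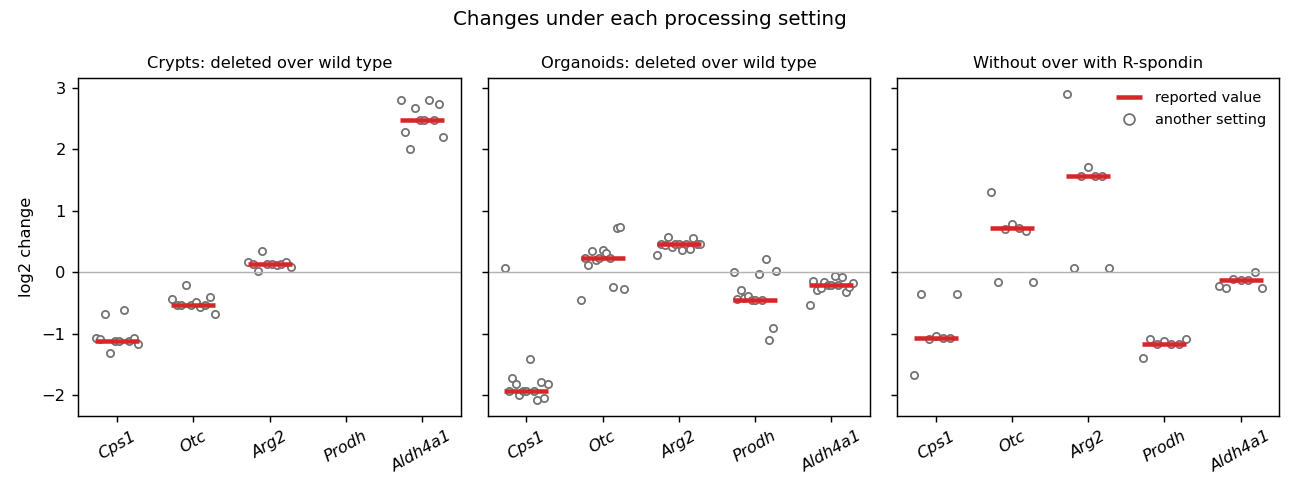
Log2 change (vertical axis) of 5 genes under each processing setting. Red bars are the reported values and open circles the other settings, some of which change more than 1 step. In crypts and on withdrawal, processed signals were also used without loess. The series matrix ratios also keep marked spots, and in organoids they replace Cy5 by the ratio. In organoids Cps1 stays below 0 but for the ratio, at 0.066. On withdrawal Arg2 runs between 0.069 and 2.90. Prodh has no tested crypt value.

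The neighbouring pathways were described with 52 further genes of arginine, proline, glutamine and polyamine metabolism, of which 50 were on the array. In crypts 42 were tested and 0 passed the adjusted test, with 3 higher and 2 lower at an unadjusted limma p under 0.05, beside 6.43% and 7.28% of all genes. By size, 1 of them was past 2-fold: Glul, which makes glutamine, had -0.75, -0.50, -1.88 and -1.24 on the crypt arrays. All 4 were below 0, at -1.10 (SE 0.29, limma adjusted p 0.247), but a second Glul probe gave 0.18, -0.44, -0.10 and -0.31. The medians of all 42 and of all genes were 0.02 and -0.02.

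In organoids 41 were tested and 0 passed, with 4 higher and 6 lower at an unadjusted limma p under 0.05, beside 3.49% and 4.25% of all genes. Of the 8 tested members, 0 were higher and 1 lower (Cps1) by the same rule, and 0 passed the adjusted test, which called 0.0301% of all genes higher and 0.00751% lower. Past 2-fold with deleted and wild type cultures not overlapping were 0 members upwards and 1 downwards (Cps1), beside 1.12% and 1.59% of all genes. Oplah, which opens 5-oxoproline to glutamate, had levels of 583 and 343 in deleted cultures, against 159 and 165 in wild type cultures (1.46, limma adjusted p 0.299). Gamt, which makes creatine, had 859 and 584 in deleted cultures, against 290 and 288 in wild type cultures (1.29, limma adjusted p 0.295). In neither gene did the groups overlap. Ppat, which uses glutamine to start purine synthesis, had 407 and 434 in deleted cultures, against 1378 and 923 in wild type cultures (-1.43, limma adjusted p 0.267). Gls2, a glutaminase, had 259 and 293 in deleted cultures, against 511 and 615 in wild type cultures (-1.03, limma adjusted p 0.337).

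On withdrawal 42 of the further genes had a value, 3 past 2-fold upwards and 7 downwards by ratio, beside 4.51% and 6.46% of all genes. The levels given are Cy5 signals, whereas the changes in brackets are ratios to the Cy3 reference. Gls2 had a level of 354 without R-spondin, against 3362 with it (-3.15). Ppat had 208 without and 1617 with R-spondin (-2.97), and Cad, which uses glutamine to start pyrimidine synthesis, had 1989 without and 8312 with R-spondin (-2.10). Of the 15 glutamine and glutamate genes with a value, 7 were above 0 and 8 below, beside 9884 and 7280 of 17164 genes. By ratio, 0 of the 15 were past 2-fold upwards and 5 downwards. Pepd, which frees proline from dipeptides, had 83594 without and 36319 with R-spondin (1.51). Slc25a15, the mitochondrial ornithine carrier, had 1517 without and 847 with R-spondin (1.04). Azin1, a regulator of polyamine synthesis, had 7620 without and 4417 with R-spondin (1.09). For both of these genes the Cy5 levels lay within 2-fold. A second bright Azin1 probe had 4425 without and 2773 with R-spondin, and no ratio without R-spondin because its spot was marked. The median of the 42 was -0.19 and that of all genes 0.07.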

How the data were processed

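Agilent's scanner files hold intensity values per spot, raw and processed, as the authors deposited them. Per the file headers they were made with Feature Extraction 10.5.1.1, whereas the submitters' processing notes name 8.5.1.1. The deposited series matrix holds log10 ratios of the processed signals, and its sign was turned for the crypt arrays with deleted RNA in Cy3. The members, lists and choices were fixed with earlier results of these data known.

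Raw signals (mean pixels for crypt and R-spondin arrays, median pixels for the other organoid arrays) were corrected with normexp (offset 50, limma 3.58.1, R 4.3.3). Spots marked as outliers were left out before that fit, and control spots after it. Crypt and withdrawal log2 ratios were loess-normalised (span 0.3), and organoid Cy5 signals quantile-normalised. Of 41174 probes, 26690 were named through RefSeq accessions. Each gene was read from its brightest probe among those detected throughout 1 or more groups. Dye-swapped arrays were averaged to 2 replicates and tested against 0. Deleted organoids were tested against wild type, and crypt against organoid changes over 2 replicates and 2 slides, all with limma, two-sided, with Benjamini-Hochberg adjustment over all genes and a threshold of 0.05. Withdrawal has 1 culture a side, so a log2 change of 1 stands in for a test. Named genes are the 9 members, Lgr4 and Lgr5, and per comparison up to 3 other pathway genes each way past 2-fold. Crypt replicates had to go the same way, and deleted and wild type organoid cultures not to overlap. The main steps were run on simulated arrays with changes placed in them. Those had no marked spots and 1 set spread for all probes, so they cannot show how the steps perform on these arrays. Background, normalisation, marked spots, filter, probe choice, measure, slide and left-out replicates were varied. The number of arrays limits the precision.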

Additional observations from a re-analysis of the deposited data

Results flagged for a closer look

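The change in crypts minus the change in organoids was singled out for 3 genes. For Aldh4a1 it was 2.68 and passed limma's test of the difference (adjusted p 0.0468), with crypt replicates at 2.21 and 2.75 and organoid slides at -0.30 and -0.11. The call was lost in 5 of the 6 alternatives run, with adjusted p-values of up to 0.443. For Otc, read from its second probe, it was -0.66 (limma adjusted p 0.45). Its crypt replicates were -0.46 and -0.39 and its organoid slides 0.21 and 0.26, so every crypt value lay on the other side of 0 from every organoid value. For Ass1, read from the probe not used for its crypt estimate, it was -0.29 (limma adjusted p 0.714). Its crypt replicates were -0.06 and -0.43 and its organoid slides 0.09 and 0.01. The last 2 differences did not pass.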

How the results depend on the processing

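Over the alternatives, 3 of 67 member values in crypts, 10 of 119 in organoids and 2 of 41 of the differences changed direction, while 12 passed that had not and 5 no longer passed. Asl in crypts turned to 0.52 with median centring, 0.035 with processed signals and 0.11 with the series matrix. In organoids the ratio gave 0.066 for Cps1 and -0.44 for Otc, and the mean of its probes gave -0.053 for Ass1. Leaving out 1 culture moved Otc between -0.27 and 0.74, Ass1 between -0.13 and 0.22, Prodh between -1.10 and 0.21 and Asl between -0.13 and 1.82. With organoid ratios the difference was -1.18 for Cps1 and 0.018 for Otc. The numbers of genes called (higher, lower) in crypts were 298 and 163 with processed signals, 282 and 134 with the series matrix, 277 and 52 with median centring, 70 and 19 with the mean of probes, 68 and 24 in the joint fit, 40 and 11 without background correction, 31 and 10 with marked spots kept, and 0 higher without the filter on dim probes. Without 1 crypt replicate they were 0 to 68 higher and 0 to 102 lower. In organoids they were 141 and 193 with the slide block, 43 and 37 with processed signals, 8 higher with the series matrix, 5 lower with 75th percentile scaling, 1 and 0 with marked spots kept or without background correction, and 0 and 0 by ratio or without the filter. Without 1 culture they were 2 to 72 higher and 1 to 39 lower. On withdrawal 1271 genes were past 2-fold upwards with processed signals, and 1365 upwards and 1676 downwards with the series matrix. The difference test called 0 and 0 with organoid ratios and 3 lower with marked spots kept, and without 1 replicate or slide 0 to 140 higher and 0 to 230 lower. Settings with marked spots kept and with 1 replicate or slide left out of the difference test were chosen after seeing the data. The causes were not tested. The slide block is the paired analysis of the organoids, since each slide held 1 deleted and 1 wild type culture. The joint fit takes part of its spread, and fits without 1 crypt replicate all of it, from the organoid ratios to the Cy3 reference. Oat, and Prodh in crypts, had no value with marked spots left out and are not in these counts. On withdrawal 9 of 56 member values moved, and Otc had -0.16 with processed signals. Reference spots near background limit the ratios of Cps1, Otc and Arg2.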
